A study of Mus musculus with 18 samples.

Results

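Retinas taken 30 days after an intravitreal injection of dexamethasone (DEX, a synthetic glucocorticoid) were compared with retinas taken 30 days after an injection of the vehicle (BSS). The comparison used every probe set that names exactly 1 gene, with 1 probe set kept per gene, on the 3 DEX day 30 and the 3 BSS day 30 arrays. These are 6 of the 18 Affymetrix arrays of the series and cover 18193 genes. All eyes came from male C57BL6/J mice aged 2 months, and the injection was given at day 0. The DEX day 30 group received DEX and the BSS day 30 group received BSS alone, so both groups carry the injection itself. Groups used only for values set beside this comparison are triamcinolone at day 30 (TAA day 30), DEX at day 7 and BSS at day 7, with 3 arrays each. The labels give no dose, and they do not say whether a retina was pooled with another or whether both eyes of a mouse were used.

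Glucocorticoids enter cells and bind the glucocorticoid receptor, which moves to the nucleus, activates genes such as Fkbp5 and Tsc22d3 and represses many inflammatory genes. In the eye they are used against macular oedema and inflammation, and they act on Müller glia, microglia and vessels. Müller glia span the retina, and when it is injured they raise the intermediate filament protein GFAP, a response called reactive gliosis. Microglia are the resident macrophages of the retina and take part in complement and antigen presentation.

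The deposited values are log2 values centred on the median of the 18 arrays for each probe set, and can be compared between arrays but not between genes. A value of 0 is the middle of the series, and 1 unit is a doubling if the log base is taken as that of RMA. For that reason the label "retina" could not be checked against the level of retinal genes, and no signal over background is known. In the text, a difference is DEX minus BSS with its limma standard error, and each group has n = 3.

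One array of the DEX group stood apart. Across genes, DEX replicates 1 and 2 correlated with each other at 0.690, while DEX replicate 3 correlated with them at -0.0597 and -0.101. With BSS replicates 1, 2 and 3, DEX replicate 3 correlated at 0.169, 0.437 and 0.373. The 3 BSS pairs correlated at 0.0972, 0.295 and 0.218. DEX replicates 1 and 2 also correlated with TAA day 7 replicate 2 at 0.339 and 0.415. The genes are not independent replicates, so these correlations describe the arrays and carry no test. DEX replicates 1 and 2 spread more widely over all probe sets (SD 0.265 and 0.296) than DEX replicate 3 (SD 0.212) and the BSS arrays (SD 0.163, 0.194 and 0.205). The 3' minus 5' difference of the Actb control probe sets, a sign of RNA integrity, was 0.048, 0.068 and 0.137 on the DEX arrays and -0.083, 0.124 and -0.009 on the BSS arrays, so those ranges overlapped. For Gapdh it was -0.087, 0.032 and 0.080 on the DEX arrays and -0.048, 0.028 and -0.140 on the BSS arrays, again with overlap. In both controls DEX replicate 3 had the highest value of the day 30 DEX and BSS arrays. BSS replicate 2 had the highest value of the BSS arrays in both. The control values are centred on the series, so they compare arrays and give no absolute integrity. The part of RNA integrity in how these arrays differed was not tested. Values are given below with DEX replicate 3, and also without it where a result rests on it.

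**Figure D1:**
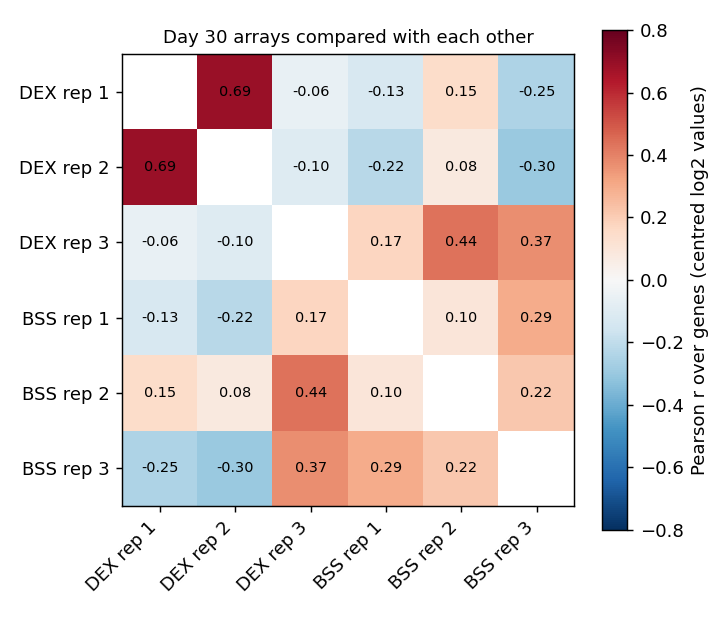
Pearson correlation across genes between the 6 day 30 arrays, from the centred log2 values, with DEX replicates (rep) before BSS replicates. DEX replicates 1 and 2 correlate at 0.69, and DEX replicate 3 lies nearer to the 3 BSS arrays than to its own group.

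With all arrays, limma called 0 of the 18193 genes (0%) at an adjusted p under 0.05, and the smallest adjusted p was 0.354. An unadjusted p under 0.05 was reached by 2100 genes (11.5%), against 909.65 that chance gives for independent genes. Of these, 911 were higher (5.01% of all genes) and 1189 lower (6.54%) in DEX retinas. The arrays of the groups did not overlap for 2619 genes (14.4%), with 811 higher (4.46%) and 1808 lower (9.94%) in DEX. The median difference over all genes was -0.04, and 10538 genes (57.9%) lay below 0. This lean depended on the normalization. With quantile normalization the median was -0.01. Of the 1736 genes then at an unadjusted p under 0.05, 51.5% were higher, against 43.4% in the main fit. Without DEX replicate 3, limma called 695 genes (3.82%), 440 higher (2.42%) and 255 lower (1.4%). No single gene below therefore passed with all arrays, and the genes named are described by their values.

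**Figure D2:**
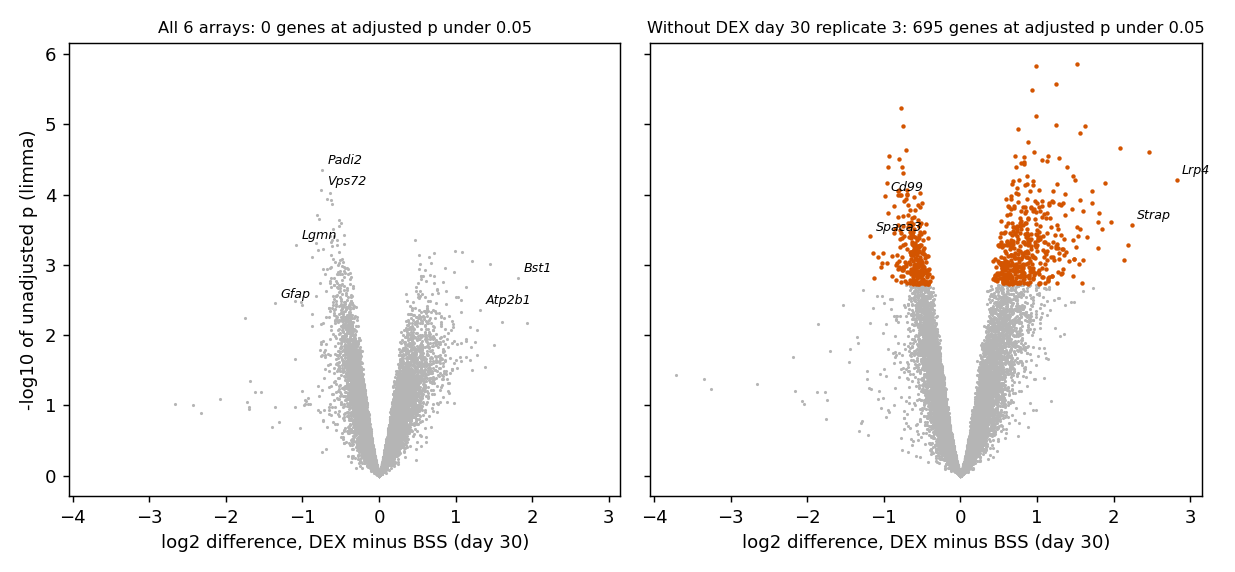
Each point is 1 of 18193 genes, with the log2 difference DEX minus BSS at day 30 on the horizontal axis and -log10 of limma's unadjusted p on the vertical axis. Orange points have an adjusted p under 0.05, which 0 genes had with all 6 arrays (left) and 695 genes had without DEX replicate 3 (right).

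Reactive gliosis genes were the first group examined, because GFAP marks the state of Müller glia. Gfap was at -1.32, -1.59 and -0.93 on the DEX arrays, against 0.43, -0.19 and -0.01 on the BSS arrays. All 3 DEX arrays lay below all 3 BSS arrays, and DEX replicate 3 was the nearest of them to BSS. The difference was -1.36 ± 0.40, or 0.391 of the BSS value, with an adjusted p of 0.362 by limma. All 3 probe sets of Gfap were lower in DEX, by amounts from -1.36 to -0.38, and leaving out any 1 array kept the difference between -1.53 and -1.18.

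Serpina3n, a secreted protease inhibitor of reactive glia, was at -2.35, -2.20 and -0.77 in DEX retinas, against 0.41, -1.86 and 1.18 in BSS retinas. BSS replicate 2 was nearly as low as DEX replicates 1 and 2, so the groups overlapped, and the difference was -1.69 ± 0.78. Hspb1, a small heat shock protein of stressed glia and neurons, was at -0.33, -0.21 and -0.19 in DEX, against 0.44, -0.07 and 1.17 in BSS. Its groups did not overlap, but BSS replicate 2 came within a small distance of DEX replicate 3, and the difference was -0.76 ± 0.27. The neural intermediate filament gene Nes differed by -0.32 ± 0.14, and by -0.49 without DEX replicate 3 (adjusted p = 0.046 by limma).

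Over the 21 gliosis genes measured, 14 were lower and 7 higher in DEX, 4 lower (19.0%, against 6.54% of all genes) and 0 higher reached an unadjusted p under 0.05, and the median was -0.12, against -0.04 for all genes. With the mean of all probe sets the median was -0.02, against -0.03 for all genes, and with quantile normalization -0.03, against -0.01. The mean of the list was -0.67, -0.61 and 0.14 on the DEX arrays and -0.02, -0.66 and 0.21 on the BSS arrays. The 2 groups overlapped fully, since DEX replicate 3 was near the higher BSS arrays and BSS replicate 2 near the lower DEX arrays. The median was -0.37 without DEX replicate 3 and -0.31 without BSS replicate 2, and over the fits that left out 1 array it lay between -0.37 and 0.04. In whole retina, fewer cells of a type and less RNA per cell cannot be told apart, here or in the cell types below.

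Of 21 Müller glia genes, a list that shares Vim with the gliosis list, 16 were lower and 5 higher. The median was -0.12, between -0.16 and -0.10 when 1 array was left out. At an unadjusted p under 0.05, 2 were lower (9.52%, against 6.54% of all genes) and 1 higher, and 4 were lower with no overlap (19.0%, against 9.94%). Notch1, a receptor that keeps progenitor and glial fate, was at -0.25, -0.42 and -0.04 in DEX, against 0.14, 0.12 and 0.37 in BSS, a difference of -0.45 ± 0.15 with no overlap. Aqp4, the water channel of Müller end feet, was at 0.73, 0.93 and 0.26 in DEX, against 0.05, 0.04 and 0.06 in BSS. The DEX arrays lay above the BSS arrays (0.59 ± 0.27), but only 1 of the 3 probe sets of Aqp4 was higher, and the lowest was at -0.30. The glial potassium channel Kcnj10 differed by 0.21 ± 0.18, and Rlbp1, the retinaldehyde carrier of Müller glia, by 0.14 ± 0.15.

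**Figure D3:**
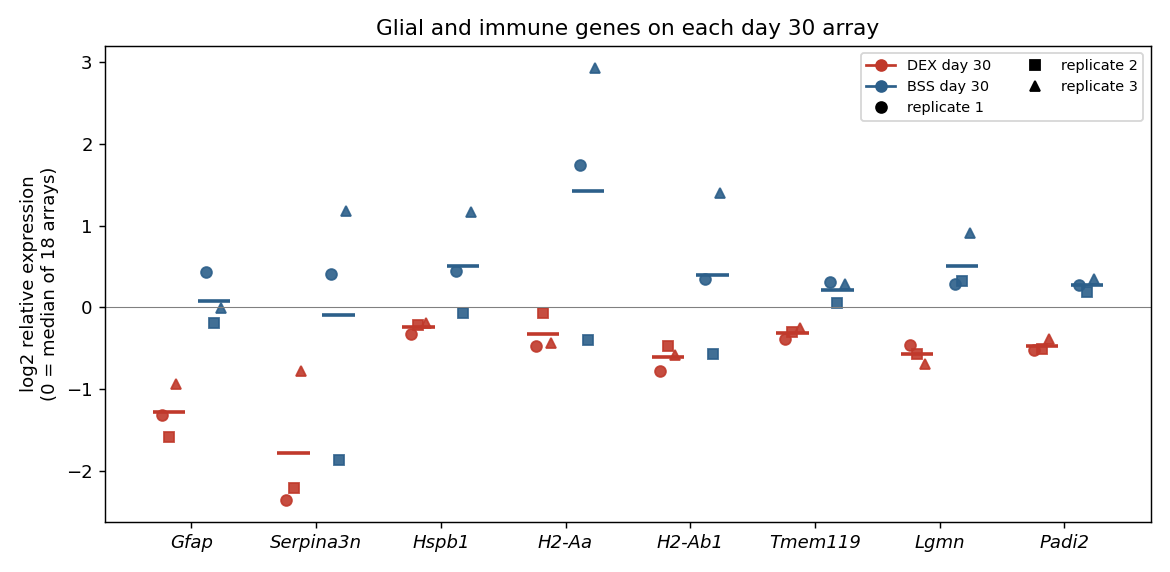
Centred log2 values of 8 glial and immune genes on each day 30 array, with DEX in red left of BSS in blue, symbols for replicates and horizontal bars for group means. Gfap, Hspb1, Tmem119, Lgmn and Padi2 do not overlap between the groups, while BSS replicate 2 lies among the DEX arrays for Serpina3n, H2-Aa and H2-Ab1.

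To show the regions from which glial and immune genes of this comparison are read, the 250 bases upstream of the annotated start are given for Gfap and Serpina3n, the gliosis genes with the largest differences, and for H2-Aa and H2-Eb1, a pair of neighbouring MHC class II genes that were low together. They were chosen after their values were seen. The sequences are RefSeq's for GRCm38.p6, read 5' to 3' on the gene's strand, and the transcription start follows the last base. Capitals mark matches, on either strand, to the glucocorticoid receptor half-site AGAACA, the STAT core TTCNNNGAA and the CCAAT box CCAAT, whose reverse is ATTGG. No motif overlapped another.
Gfap, chr11:102897201-102897450, minus strand: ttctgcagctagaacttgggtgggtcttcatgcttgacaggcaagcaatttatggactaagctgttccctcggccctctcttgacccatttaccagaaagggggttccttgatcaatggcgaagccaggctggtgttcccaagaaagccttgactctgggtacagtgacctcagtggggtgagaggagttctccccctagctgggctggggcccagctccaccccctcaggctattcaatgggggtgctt
Serpina3n, chr12:104406458-104406707, plus strand: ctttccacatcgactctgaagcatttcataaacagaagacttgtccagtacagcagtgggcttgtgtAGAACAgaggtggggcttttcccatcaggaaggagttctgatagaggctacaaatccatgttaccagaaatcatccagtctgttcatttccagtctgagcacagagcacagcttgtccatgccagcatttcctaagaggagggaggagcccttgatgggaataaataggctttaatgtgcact
H2-Aa, chr17:34287824-34288073, minus strand: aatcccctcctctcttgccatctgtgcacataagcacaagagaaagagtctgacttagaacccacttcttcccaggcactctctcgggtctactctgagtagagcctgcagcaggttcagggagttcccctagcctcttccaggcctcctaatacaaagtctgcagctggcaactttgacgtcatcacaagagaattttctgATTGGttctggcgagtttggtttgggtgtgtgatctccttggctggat
H2-Eb1, chr17:34305617-34305866, plus strand: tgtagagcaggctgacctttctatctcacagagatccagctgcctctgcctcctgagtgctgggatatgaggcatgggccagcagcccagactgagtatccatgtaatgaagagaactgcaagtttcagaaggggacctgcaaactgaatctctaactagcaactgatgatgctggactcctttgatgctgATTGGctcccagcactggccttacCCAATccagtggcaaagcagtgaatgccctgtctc

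Of these 4 windows, that of Serpina3n held the half-site, 183 to 178 bases before the start, and that of Gfap held none of the motifs. The class II windows held ATTGG at 48 to 44 bases before the start in H2-Aa and at 59 to 55 in H2-Eb1, and H2-Eb1 also held CCAAT at 35 to 31. An inverted CCAAT box near the start, the Y box, is a known part of class II promoters. Over the 27025 mouse promoters with a sequence, 16.2% held the half-site, 7.18% the STAT core and 34.5% a CCAAT box in the same window. A match describes letters in the window and says nothing of binding.

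MHC class II genes encode the proteins that present antigen on macrophages and other leukocytes. H2-Aa, a class II alpha chain, was at -0.48, -0.07 and -0.44 in DEX retinas, against 1.74, -0.40 and 2.93 in BSS retinas. BSS replicates 1 and 3 stood far above every DEX array, while BSS replicate 2 lay among them, and the difference was -1.75 ± 0.55. H2-Ab1, a class II beta chain, was at -0.77, -0.47 and -0.59 in DEX, against 0.34, -0.57 and 1.40 in BSS, a difference of -1.002 ± 0.30 with the same low BSS replicate 2. All 4 probe sets of H2-Aa and all 3 of H2-Ab1 were lower in DEX. Without BSS replicate 2, limma called 3 genes (0.0165%), which were H2-Aa (-2.66), H2-Ab1 (-1.48) and Selplg (-0.99), each with an adjusted p of 0.0255. Without BSS replicate 3, H2-Aa was at -1.0 and H2-Ab1 at -0.50. Of the other class II genes, H2-Eb1 differed by -0.59 ± 0.27 and the invariant chain gene Cd74 by -0.76 ± 0.25, and both were named after their values were seen. Over the 16 class II and other leukocyte genes, 12 were lower, and the median was -0.14. At an unadjusted p under 0.05, 4 were lower (25%, against 6.54% of all genes) and 1 higher, and 0 were lower with no overlap. The higher one was S100a8, a calcium-binding protein of neutrophils, at 0.64, 0.21 and 0.25 in DEX, against -0.06, 0.01 and 0.09 in BSS (0.35 ± 0.11).

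Of 21 microglial genes, 20 were lower in DEX retinas and the median was -0.30, against -0.04 for all genes, but 2 reached an unadjusted p under 0.05 (9.52%, against 6.54%). Tmem119, a membrane protein used to tell microglia from other macrophages, was at -0.39, -0.30 and -0.25 in DEX, against 0.31, 0.05 and 0.29 in BSS. Its groups did not overlap, and the difference was -0.53 ± 0.13. Selplg, the P-selectin ligand, was at -0.43, -0.25 and -0.12 in DEX, against 0.60, -0.14 and 0.84 in BSS, so BSS replicate 2 lay among the DEX arrays (-0.71 ± 0.19). The fractalkine receptor gene Cx3cr1, at -0.53 ± 0.29, and the growth factor receptor gene Csf1r, at -0.63 ± 0.30, were also lowest of the BSS arrays on replicate 2. The list's mean was -0.39, -0.42 and 0.22 on the DEX arrays and 0.29, -0.37 and 0.49 on the BSS arrays. The median was -0.55 without DEX replicate 3 and also -0.55 without BSS replicate 2, and it stayed below 0 in every fit that left out 1 array.

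All 12 complement genes were lower in DEX, with a median of -0.28. One of them, Cfb, the factor B of the alternative pathway, reached an unadjusted p under 0.05 (-0.36 ± 0.15), which is 8.33% of the list, against 6.54% of all genes. The subunits of C1q, the first component of the classical pathway, differed by -0.46 ± 0.47 (C1qa), -0.97 ± 0.56 (C1qb) and -0.93 ± 0.53 (C1qc). C1qb was at -1.40, -1.56 and -0.03 in DEX, against 0.86, -1.73 and 0.80 in BSS. DEX replicate 3 was therefore far from its group and BSS replicate 2 far from its own. Of 27 interferon-induced and MHC class I genes, 26 were lower and 0 reached an unadjusted p under 0.05, with a median of -0.32. Their mean was -0.22, -0.29 and -0.09 on the DEX arrays, against 0.13, -0.22 and 0.57 on the BSS arrays. Among 27 inflammatory mediators, 19 were lower, where 57.9% of all genes were, and 3 of them reached an unadjusted p under 0.05 (11.1%, against 6.54%). These were Rela, the p65 subunit of NF-kB (-0.43 ± 0.13), the interleukin 1 receptor gene Il1r1 (-0.47 ± 0.15) and the chemokine gene Ccl5 (-0.42 ± 0.16). Rela was at -0.70, -0.47 and -0.21 in DEX, against 0.03, -0.11 and 0.00 in BSS, with no overlap.

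The vehicle arrays used for these differences also differed among themselves in lens genes. The mean of 14 crystallin genes, which encode the soluble proteins of the lens, was -1.37, -0.13 and 0.46 on the DEX arrays and 1.45, -0.17 and 2.10 on the BSS arrays. BSS replicate 2, the array lowest in class II, microglial and complement genes among the BSS arrays, was also lowest there in crystallins. Of the 14 crystallins, 13 were lower in DEX, 0 reached an unadjusted p under 0.05, and the median was -1.65. Cryaa, alpha A crystallin, was at -3.27, -0.31 and 0.98 in DEX, against 2.40, -0.38 and 2.67 in BSS (-2.43 ± 1.39). All 9 other lens fibre genes were lower as well, with a median of -0.36 and list means of -0.17, -0.04 and 0.14 in DEX, against 0.54, 0.04 and 0.75 in BSS. Marker genes of other adjacent tissue moved less, with medians of 0.07 for 17 pigment epithelium genes, -0.05 for 11 melanosome genes and -0.12 for 6 erythrocyte genes. Among 16 genes of cornea, iris and ciliary body, which include Optc, 8 were higher and 8 lower, with a median of -0.002. Rpe65, the retinoid isomerase of the pigment epithelium, differed by 0.19 ± 0.47, the pigment enzyme gene Tyr by -0.34 ± 0.15, and Optc, opticin of the ciliary body and vitreous, by 0.46 ± 0.18. The part of lens RNA in the immune and glial differences was not tested.

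**Figure D4:**
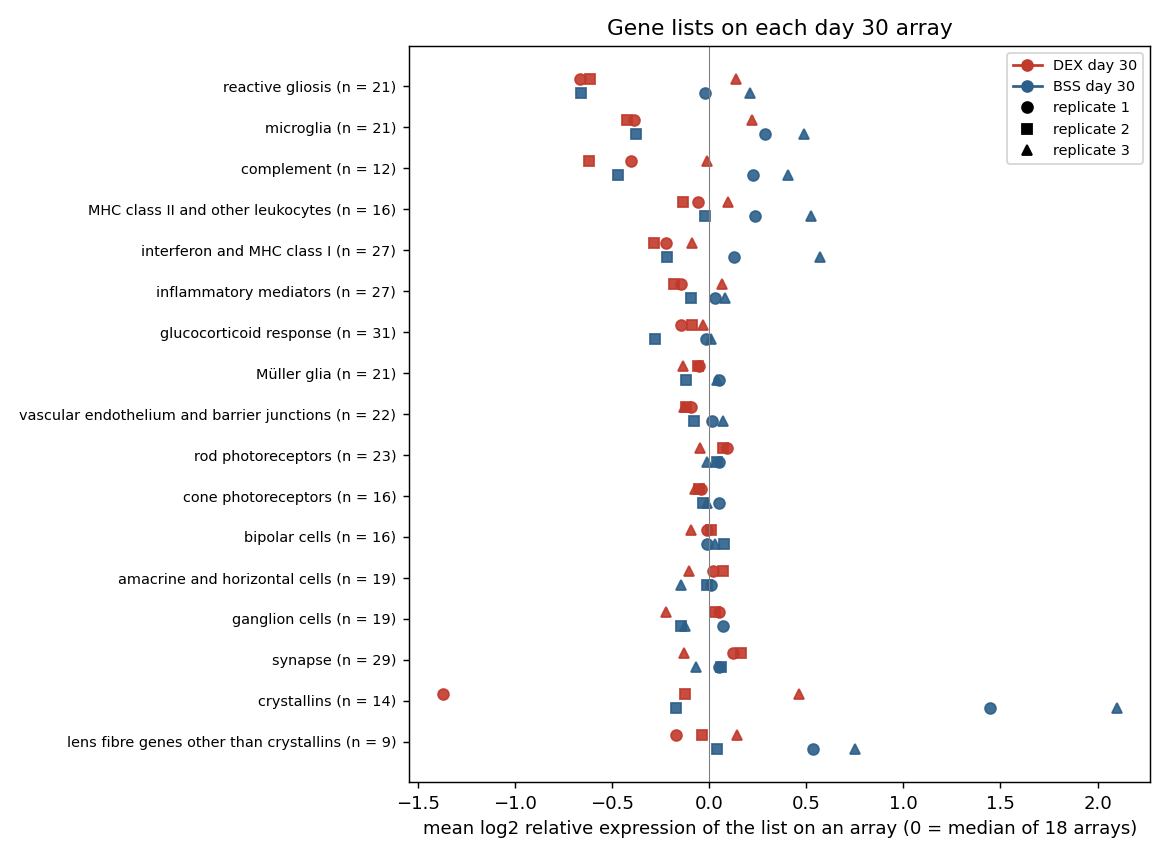
Mean centred log2 value of each gene list on each day 30 array, with DEX in red above BSS in blue and symbols for replicates; n is the number of genes measured. For gliosis, microglia, complement and crystallins the arrays of the groups interleave, with BSS replicate 2 low and DEX replicate 3 high within their groups, while the endothelial means of the 3 DEX arrays lie below those of the 3 BSS arrays.

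Endothelial genes had a lower mean on each DEX array than on any BSS array, with BSS replicate 2 the closest. Of 22 measured, 15 were lower and 7 higher, where 57.9% of all genes were lower. At an unadjusted p under 0.05, 6 were lower (27.3%, against 6.54% of all genes) and 0 higher. With no overlap, 8 were lower (36.4%, against 9.94%). The list's mean was -0.09, -0.12 and -0.13 on the DEX arrays and 0.01, -0.08 and 0.07 on the BSS arrays. The median was -0.20, and between -0.24 and -0.13 when 1 array was left out. Plvap, which forms the diaphragms of leaky capillaries, was at -0.34, -0.48 and -0.10 in DEX, against -0.02, 0.03 and 0.21 in BSS (-0.38 ± 0.11). Emcn, an endothelial sialomucin, was at -0.30, -0.24 and -0.07 in DEX, against 0.08, 0.22 and 0.09 in BSS (-0.33 ± 0.10). Neither gene overlapped between the groups, and limma called both without DEX replicate 3 (adjusted p = 0.036 for Plvap and 0.048 for Emcn). Egfl7, a factor secreted by endothelium, differed by -0.37 ± 0.12, also with no overlap.

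A pair of barrier junction genes was followed. Cldn5, the main claudin of the blood-retina barrier, was at 0.56, 0.79 and -0.03 in DEX, against 0.20, -0.04 and 0.10 in BSS (0.35 ± 0.32), and the groups overlapped. Ocln, occludin, differed by 0.05 ± 0.14, and the sign turned in some fits that left out 1 array. The vascular growth factor gene Vegfa differed by -0.11 ± 0.15 and its receptor gene Kdr by -0.28 ± 0.18. Of the genes of pericytes and smooth muscle, Tagln, an actin-binding protein, differed by -0.37 ± 0.15, while Mylk, myosin light chain kinase, was at 1.99, 1.80 and -0.51 in DEX, against -0.08, 0.02 and -0.48 in BSS. Mylk was thus high on DEX replicates 1 and 2 alone (1.28 ± 0.49), and the smallest of its 3 probe sets was at 0.01. The list of 15 mural genes had a median of -0.05.

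Genes induced by glucocorticoids were followed as a list. Of 31 measured, 11 were higher and 20 lower, with a median of -0.08, and 2 higher and 1 lower reached an unadjusted p under 0.05, against 5.01% and 6.54% of all genes. The list's mean was -0.15, -0.09 and -0.03 on the DEX arrays and -0.02, -0.28 and 0.01 on the BSS arrays. Fkbp5, a co-chaperone of the receptor and a direct target, was at -0.10, -0.25 and -0.21 in DEX, against 0.16, -0.18 and -0.07 in BSS (-0.16 ± 0.29). Tsc22d3, which encodes the anti-inflammatory protein GILZ, was at -0.23, -0.19 and -0.42 in DEX, against -0.01, -0.45 and -0.52 in BSS (0.05 ± 0.14). Both overlapped between the groups. The clock gene Per1 differed by -0.23 ± 0.13, the kinase gene Sgk1 by 0.18 ± 0.11, the zinc finger gene Zbtb16 by 0.11 ± 0.16, and the metallothionein genes Mt1 and Mt2 by -0.35 ± 0.28 and -0.35 ± 0.38. Folh1, glutamate carboxypeptidase II, which was also followed, differed by 0.15 ± 0.26.

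Klf9, a transcription factor induced by glucocorticoids, was at 0.81, 1.08 and -0.54 in DEX, against -0.15, -0.56 and -0.47 in BSS. It was high on DEX replicates 1 and 2 and at the level of BSS on DEX replicate 3 (0.85 ± 0.36), and its 7 probe sets ran from -0.16 to 0.997. Fam107a, a stress-induced actin-binding protein, was at 0.46, 0.71 and -0.05 in DEX, against -0.13, -0.21 and -0.49 in BSS (0.65 ± 0.24). Glul, the glutamine synthetase of Müller glia, was at -0.03, -0.13 and -0.33 in DEX, against 0.11, 0.00 and 0.18 in BSS, the opposite direction with no overlap (-0.26 ± 0.11), although its other probe set was at 0.05. The receptor gene Nr3c1 itself differed by 0.26 ± 0.14, and the 10 receptor and chaperone genes had a median of 0.04.

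Photoreceptor genes had medians near 0. Of 23 rod genes 13 were higher and 10 lower (median 0.03), and of 16 cone genes 4 were higher and 12 lower (median -0.09). Pde6g, the inhibitory subunit of the rod phosphodiesterase, was at -0.23, -0.39 and -0.31 in DEX, against 0.17, -0.15 and 0.17 in BSS (-0.38 ± 0.15). Rp1, a microtubule protein of the outer segment, was at 0.23, 0.53 and 0.22 in DEX, against 0.14, 0.05 and 0.01 in BSS (0.26 ± 0.12). The groups did not overlap for either gene. In cones, Pde6c, the catalytic phosphodiesterase subunit, differed by 0.31 ± 0.12 and the thyroid hormone receptor gene Thrb by -0.38 ± 0.16, while the opsin genes Opn1sw and Opn1mw differed by -0.14 ± 0.31 and -0.37 ± 0.35.

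Among the markers of inner retinal neurons, Scgn, secretagogin of cone bipolar cells, was at -0.03, -0.07 and -0.10 in DEX, against 0.48, 0.39 and 0.65 in BSS. The DEX arrays lay within a narrow band well below the BSS arrays (-0.58 ± 0.14). Trpm1, the transduction channel of ON bipolar cells, was at -0.29, -0.33 and 0.04 in DEX, against 0.28, 0.17 and 0.42 in BSS (-0.49 ± 0.15), and all 4 of its probe sets were lower. Bhlhe23, a bipolar transcription factor, differed by -0.35 ± 0.16. Over 16 bipolar genes, 8 were higher and 8 lower, and the median was -0.05, or 0.00 without BSS replicate 2. Of them, 3 lower (18.8%, against 6.54% of all genes) and 0 higher reached an unadjusted p under 0.05. Calb2, calretinin of amacrine and ganglion cells, was at -0.46, -0.51 and -0.23 in DEX, against 0.22, 0.10 and 0.31 in BSS. It did not overlap (-0.61 ± 0.13), and without DEX replicate 3 limma called it (-0.69, adjusted p = 0.029). Calb1, calbindin of horizontal cells, lay the other way, at 0.21, 0.00 and -0.38 in DEX, against -0.39, -0.48 and -0.97 in BSS (0.56 ± 0.24), as did Onecut1, a horizontal cell transcription factor (0.31 ± 0.14). Over 19 amacrine and horizontal cell genes, 10 were higher and 9 lower, and the median was 0.01. Of them, 2 higher and 1 lower reached an unadjusted p under 0.05, against 5.01% and 6.54% of all genes.

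Ganglion cell genes lay on both sides of vehicle. Atoh7, the factor that specifies ganglion cells, was at -0.34, -0.46 and -0.02 in DEX, against 0.29, 0.17 and 0.21 in BSS (-0.50 ± 0.15), but the other of its 2 probe sets was at 0.11. Sncg, gamma-synuclein of ganglion cells, was at -0.51, -0.47 and -0.31 in DEX, against 0.12, -0.20 and -0.16 in BSS (-0.35 ± 0.12). Neither gene overlapped. Pou4f1, a transcription factor of mature ganglion cells, was at 0.37, 0.50 and -0.56 in DEX, against -0.40, -0.37 and -0.50 in BSS, high on DEX replicates 1 and 2 and lowest of all 6 on DEX replicate 3. Thy1, a surface protein of ganglion cells, differed by -0.07 ± 0.16. Over 19 ganglion cell genes, 10 were higher and 9 lower, and the median was 0.00.

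Among 29 synapse genes, 5 higher and 4 lower reached an unadjusted p under 0.05, against 5.01% and 6.54% of all genes. With no overlap, 0 were higher and 7 lower (24.1%, against 9.94%). Stx1a, a syntaxin of transmitter release, was at -0.43, -0.62 and -0.39 in DEX, against 0.01, -0.07 and 0.18 in BSS (-0.52 ± 0.14). Syn1, synapsin of synaptic vesicles, was at -0.55, -0.24 and -0.05 in DEX, against 0.28, 0.13 and 0.01 in BSS (-0.42 ± 0.15). Both lay lower on every DEX array. Gria4, an AMPA receptor subunit, was at 0.92, 1.26 and 0.03 in DEX, against -0.06, 0.17 and -0.60 in BSS (0.90 ± 0.31), so its higher mean rests on DEX replicates 1 and 2. Among 18 neuropeptide genes, Cck, cholecystokinin, was at -0.50, -0.60 and -0.16 in DEX, against 0.17, -0.04 and 0.02 in BSS (-0.47 ± 0.14), and Npy, neuropeptide Y, differed by -0.38 ± 0.16. Crh, corticotropin-releasing hormone, was at 0.36, 0.84 and 0.16 in DEX, against 0.03, -0.31 and -0.95 in BSS (0.87 ± 0.35).

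Immediate early genes, which respond to light and handling as well as to hormones, were lower for 13 of 19 members, 4 of them at an unadjusted p under 0.05 (21.1%, against 6.54% of all genes). The median was -0.15, between -0.25 and 0.04 when 1 array was left out. Egr1 was at -0.27, -0.09 and -0.73 in DEX, against 0.88, 0.07 and -0.07 in BSS (-0.65 ± 0.28), and Fos at 0.00, 0.01 and -0.31 in DEX, against 0.83, 0.41 and 0.01 in BSS (-0.52 ± 0.22). BSS replicate 1 was the high array for both genes, and without it Egr1 was at -0.36 and Fos at -0.31. Of 19 clock genes 10 were lower, 2 of them at an unadjusted p under 0.05 (10.5%, against 6.54%), the repressor Nr1d1 (-0.44 ± 0.12) and the PAR-domain factor Dbp (-0.37 ± 0.14). Nr1d1 was at -0.49, -0.27 and -0.31 in DEX, against 0.17, 0.06 and 0.02 in BSS, with no overlap. The labels give no hour of collection. In the extracellular matrix, Sparc, which binds collagen, differed by -0.64 ± 0.17 and Mgp, matrix Gla protein, by -0.53 ± 0.22, and 5 of the 32 genes were lower with no overlap (15.6%, against 9.94%) and 2 higher (against 4.46%). Respiratory chain genes were lower for 22 of 28 members (median -0.12), 3 of them at an unadjusted p under 0.05 (10.7%, against 6.54%), which were Cox4i1 (-0.35 ± 0.15), Cox5b (-0.54 ± 0.22) and Uqcrc1 (-0.37 ± 0.16). The endoplasmic reticulum chaperone gene Hspa5 was at 1.35, 1.58 and 0.00 in DEX, against 0.58, 0.28 and 0.00 in BSS (0.69 ± 0.33), and only DEX replicates 1 and 2 stood above vehicle.

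Among the other lists, 26 of 37 in all had a median below 0, and 21 had a median below that of all genes. With quantile normalization, the number of lists with a median below 0 was 21. Of 16 cell death genes, Casp8, an initiator caspase, differed by -0.44 ± 0.15, Bcl2l11, the pro-apoptotic protein BIM, by -0.47 ± 0.20, and Parp1, a DNA repair enzyme, by 0.41 ± 0.18. In the list of genes linked to steroid glaucoma, Sfrp1, a Wnt antagonist, differed by -0.44 ± 0.17, Tbk1, a kinase of innate immunity, by 0.52 ± 0.20, and Bmp4, a bone morphogenetic protein, by -0.23 ± 0.11. The cell cycle gene Ccnd3 differed by -0.33 ± 0.11, the sterol regulator gene Insig1 by 0.46 ± 0.19, and Serpinf1, the antiangiogenic factor PEDF, by -0.45 ± 0.17. In water and ion transport, Scnn1a, an epithelial sodium channel subunit, differed by -0.32 ± 0.13 and Dag1, dystroglycan of Müller end feet, by -0.36 ± 0.13. The lists for cell cycle (21 genes), cholesterol synthesis (18), angiogenesis and hypoxia (24), neurotrophic factors (15) and ribosomal proteins (26) had medians from -0.09 to 0.05.

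The 12 genes named as lower lay below BSS on each of the 3 DEX arrays, as the naming rule requires. Padi2, peptidylarginine deiminase 2, which converts arginine to citrulline in glial proteins, was at -0.52, -0.50 and -0.38 in DEX, against 0.27, 0.19 and 0.35 in BSS (-0.74 ± 0.14), the smallest p of all genes (4.42e-05 unadjusted, 0.354 adjusted by limma). Lgmn, legumain, a lysosomal protease of macrophages and microglia, was at -0.45, -0.57 and -0.70 in DEX, against 0.29, 0.33 and 0.90 in BSS (-1.08 ± 0.25). Vps72, a subunit of a complex that places histone H2A.Z, was at -0.44, -0.69 and -0.65 in DEX, against 0.24, 0.09 and 0.15 in BSS (-0.75 ± 0.15). In these 3 genes DEX replicate 3 lay with its group, and leaving it out changed the differences to -0.78, -1.02 and -0.73.

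The other genes named as lower were Trim3, a brain ubiquitin ligase (-1.02 ± 0.30), the secreted protein gene C1qtnf4 (-0.87 ± 0.21), Haghl (-0.82 ± 0.24), the myotubularin-related gene Sbf1 (-0.82 ± 0.19) and Pcsk1n, the proSAAS precursor of neuroendocrine cells (-0.81 ± 0.17). Cd99, a surface protein of leukocytes and endothelium, differed by -0.79 ± 0.19, Fbxo2, a ubiquitin ligase subunit that recognises glycoproteins, by -0.78 ± 0.17, and the interferon-induced gene Ly6e by -0.78 ± 0.21. Cd99 was lower on all 3 of its probe sets, from -0.92 to -0.47, and Haghl on all 4.

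For all 12 genes named as higher, DEX replicate 3 was the lowest DEX array. Bst1, an ectoenzyme that makes cyclic ADP-ribose, was at 1.73, 2.12 and -0.01 in DEX, against -0.10, -0.68 and -0.82 in BSS (1.81 ± 0.48, 3.51-fold), and its other probe set was at 0.11. Atp2b1, a plasma membrane calcium pump, was at 1.33, 1.53 and -0.03 in DEX, against -0.43, -0.26 and -0.45 in BSS (1.32 ± 0.40), and its 3 probe sets ran from -0.01 to 1.32. Map3k12, the kinase DLK of axon injury signalling, was at 0.66, 1.28 and -0.03 in DEX, against -0.13, -0.22 and -0.37 in BSS (0.88 ± 0.26). In these 3 genes DEX replicate 3 was much nearer to the highest BSS array than to DEX replicates 1 and 2. The rest were the vomeronasal receptor gene Vmn1r58 (1.21 ± 0.30), Etfrf1 (1.09 ± 0.26), the transcription factor gene Sp3 (1.08 ± 0.31), Fgd1, an activator of Cdc42 (1.003 ± 0.29), Qser1 (0.98 ± 0.24), Tasor2 (0.97 ± 0.25), Nat8f3 (0.88 ± 0.25), the cyclin E2 gene Ccne2 (0.86 ± 0.22) and the potassium channel gene Kcnn2 (0.77 ± 0.22).

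**Figure D5:**
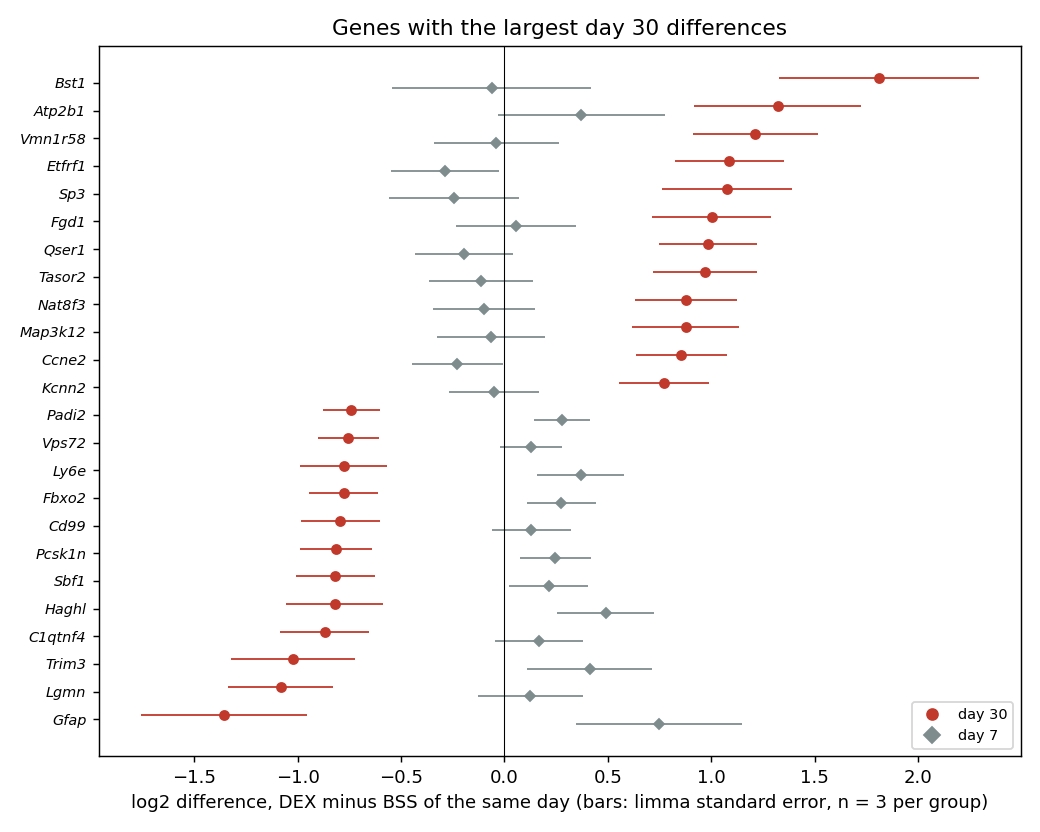
Log2 difference DEX minus BSS at day 30 (red circles) and at day 7 (grey diamonds) for the 24 genes with the largest named differences at day 30; bars are limma standard errors with n = 3 per group. The 12 lower genes at day 30 all lie above 0 at day 7, where Gfap is at 0.75 and Padi2 at 0.28. At day 7, 9386 of all 18193 genes lay below 0, and 0 genes had an adjusted p under 0.05.

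Other probe sets of a gene often had smaller differences than the one kept, which was chosen for its spread over the 18 arrays. For genes with an unadjusted p under 0.05, 67.5% of the other probe sets of higher genes and 68.5% of those of lower genes had the same direction, against 58.6% for all genes. The other probe sets were under 0.5 of the size of the one kept in 76.1% of cases for higher genes, 69.4% for lower genes and 39.0% for all genes. The genes also differed in length. The median length of the gene was 31.2 kb for higher genes, 14.6 kb for lower genes and 20.3 kb for all genes, as a description with no test. Promoter composition was not compared, since under 80% of all genes had a promoter sequence here.

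Leaving out DEX replicate 3 gave 695 called genes, and 605 of them also had an unadjusted p under 0.05 with all arrays. On the array left out, 251 of the 440 higher genes (57.0%) lay above the BSS mean, and 192 of the 255 lower genes (75.3%) lay below it. The same 3 BSS arrays chose the genes and gave this mean, and the share over all genes was not computed. The fit with all arrays also includes the arrays that chose the genes. These counts are therefore a description and no independent check. The median distance of that array from the BSS mean was 0.03 for the higher genes, against a median difference of 0.83 for the other DEX arrays, and -0.14 for the lower genes, against -0.60. The largest higher difference was that of Lrp4, a receptor of Wnt and agrin signalling, at 2.27, 2.44 and -0.32 in DEX, against -0.24, -0.40 and -0.75 in BSS (2.82 ± 0.53 without replicate 3, adjusted p = 0.0286 by limma, and 1.93 with it). Strap, an assembly factor of the SMN complex, was at 1.74, 2.11 and -0.28 in DEX, against -0.26, -0.24 and -0.45 in BSS, and without replicate 3 its 3 probe sets ran from 0.22 to 2.24. The largest lower difference was that of Spaca3, a sperm acrosome protein, at -1.05, -0.84 and 0.45 in DEX, against 0.19, 0.12 and 0.39 in BSS. These genes were at vehicle level or beyond it on DEX replicate 3, unlike Cd99 and Pcsk1n, which were low on all 3 DEX arrays and also among the 10 largest lower differences.

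The effect of DEX at day 30 was set against that at day 7, which has its own vehicle arrays. At day 7, limma called 0 of 18193 genes for DEX minus BSS, with a smallest adjusted p of 0.790. An unadjusted p under 0.05 was reached there by 711 genes, against 909.65 that chance gives for independent genes. Between the BSS arrays of day 30 and day 7, limma called 5 of 18193 genes. The vehicle's own change enters the change of the DEX effect, and its part was not tested. In limma's test of the change between days, the adjusted threshold was met by 0 genes (the smallest was 0.283) and an unadjusted p under 0.05 by 1558 (8.56%), of which 977 were lower (5.37%) and 581 higher (3.19%) at day 30. The 3 genes of smallest p were Nlgn2, a postsynaptic adhesion protein of inhibitory synapses, Padi2 and Oplah, an enzyme of the glutathione cycle. Nlgn2 was at -0.46, -0.44 and -0.26 with DEX, against 0.20, 0.31 and 0.27 with BSS at day 30, and at 0.48, 0.18 and 0.18 with DEX, against -0.02, 0.02 and -0.17 with BSS at day 7. The difference was thus -0.65 at day 30 and 0.34 at day 7, and the change was -0.99 ± 0.18. The change was -1.02 ± 0.19 for Padi2 and -0.78 ± 0.15 for Oplah, each with an adjusted p of 0.283.

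The sign of the Gfap difference was opposite at the earlier day. Gfap was at 0.77, 0.41 and 0.35 with DEX at day 7, against -0.06, -0.76 and 0.11 with BSS at day 7, a difference of 0.75 ± 0.40. Its change between days was -2.10 ± 0.57 (adjusted p = 0.406 by limma), and that of Serpina3n, at 1.77 ± 0.78 on day 7, was -3.45 ± 1.10 (adjusted p = 0.421). Over the lists, the median change was -0.80 for gliosis (3 of 21 lower at an unadjusted p under 0.05), -0.76 for microglia (5 of 21), -0.72 for interferon and MHC class I genes (9 of 27), -0.43 for complement (2 of 12) and -0.22 for endothelium (8 of 22), against -0.03 for all genes. It was -0.82 for crystallins (0 of 14) and -0.30 for Müller glia (5 of 21). These counts stand against 5.37% of all genes lower at an unadjusted p under 0.05 in the same test. The gliosis mean was 0.50, 0.50 and 0.34 on the DEX arrays of day 7 and -0.10, -0.44 and -0.17 on the BSS arrays of day 7. At day 7 the groups did not overlap in that mean, while at day 30 they did. Without DEX day 30 replicate 3 the test called 1 gene, Fam149a (1.35 ± 0.18), and without DEX day 7 replicate 2 it called 1 gene, the collagen gene Col3a1 (-2.40 ± 0.28), both named after their values were seen.

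Dexamethasone was also set against triamcinolone, a longer-lasting glucocorticoid suspension, at day 30. In limma the adjusted threshold was met by 0 genes (the smallest was 0.0633) and an unadjusted p under 0.05 by 3020 (16.6%), of which 1370 were higher (7.53%) and 1650 lower (9.07%) in DEX. The 3 genes of smallest p were Rtel1, a DNA helicase of telomeres, at -0.37, -0.28 and -0.12 with DEX, against 0.55, 0.37 and 0.49 with TAA (-0.72 ± 0.12), Dus4l, a tRNA dihydrouridine synthase (-0.83 ± 0.14), and Slc7a4, of the cationic amino acid transporter family (-0.64 ± 0.11). For all 3 the DEX arrays lay below the TAA arrays, and each had an adjusted p of 0.0633. Without DEX replicate 3 the test called 1253 genes. Without TAA replicate 1 it called 3, which were Rps6kb2, Slc7a4 and the myelin gene Pmp22, all lower in DEX. Rod genes were higher with DEX than with TAA for 8 of 23 members at an unadjusted p under 0.05, and their mean was 0.09, 0.07 and -0.05 on the DEX arrays and -0.04, -0.26 and -0.03 on the TAA arrays, with TAA replicate 2 apart from the others. On that array the 3' minus 5' difference of the Actb control probe sets was -0.459. That of Gapdh was -0.086 there, against -0.159 and -0.153 on TAA replicates 1 and 3, so the controls did not single out the array together. The part of RNA integrity in the rod difference was not tested. Heat shock genes were higher for 7 of 13 members and synapse genes for 8 of 29, against 7.53% of all genes, while 5 of 14 crystallins were lower, against 9.07%, with a median of -1.92.

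Each drug's day 30 difference uses the same 3 BSS arrays, so the values are only placed side by side. Against BSS, Gfap was at -1.36 ± 0.40 with DEX and -0.66 ± 0.40 with TAA, H2-Aa at -1.75 ± 0.55 with DEX and -1.51 ± 0.55 with TAA, and Scgn at -0.58 ± 0.14 with DEX and -0.64 ± 0.14 with TAA. Lgmn was at -1.08 ± 0.25 with DEX and -0.15 ± 0.25 with TAA, and Padi2 at -0.74 ± 0.14 with DEX and -0.25 ± 0.14 with TAA. The endothelial list had a median of -0.20 with DEX and 0.03 with TAA, the gliosis list -0.12 with DEX and 0.00 with TAA, and the microglial list -0.30 with DEX and -0.23 with TAA.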

How the data were processed

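Per the labels' protocols, retinas were stored in RNAlater, RNA was isolated with Qiagen RNeasy and labelled by the two-cycle Affymetrix procedure. Per the submitters' processing notes, RMA was used, with no version given in the sources used here. The authors' deposited values were taken as log2 values, with RMA's usual base and direction; for each of 45101 probe sets their median across 18 arrays lay within 5e-07 of 0. Arrays give no counts, and their number limits the precision.

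The platform annotation gave the gene names. Of the probe sets, 34945 named 1 gene (34741 with an ID in the RefSeq table of GRCm38.p6), 932 named several, 9160 are unnamed here and 64 are controls. For the 9009 genes with more than 1 probe set, that of the highest interquartile range over all arrays was kept, blind to group. The fit used limma 3.58.1 (R 4.3.3) with 1 coefficient for each of the 6 groups over 18 arrays (12 residual and 5.21 prior degrees of freedom), no further normalization, and Benjamini-Hochberg adjustment over all genes at 0.05. The median residual SD was 0.179. On simulated data of this comparison with 18193 genes, a log2 change of 0.5 was called for 33.8% of genes. A change of 1 was called for 85.7% and a change of 2 for 99.7%, with 0.0511% of unchanged genes called. These shares apply to the simulated data. On the real arrays no gene passed, although Bst1 differed by 1.81 and Gfap by -1.36. The shares therefore do not show that changes of such size are absent.

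The labels call the replicates biological and number them, but do not say which animals or days a number marks, nor give any batch. The deviations of same-numbered DEX and BSS day 30 arrays from their group means correlated at 0.111, 0.123 and 0.282. Unlike numbers came close, at 0.104 for DEX replicate 1 with BSS replicate 2 and 0.074 for DEX replicate 2 with BSS replicate 1. The other pairs of unlike number were below 0. Neither the labels nor these values settle whether the numbers pair these arrays. The main fit has no replicate block, and the block is given as an alternative.

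The comparison and the 37 gene lists (739 genes, 664 measured) were chosen with earlier results of these data known. The rule named genes passing with no overlap. Since none passed, it named the 12 largest differences per direction among the 200 genes of smallest p with no overlap (11 of the 200, predicted genes or clones, could not be named), up to 3 list members of smallest unadjusted p under 0.05, a fixed set of glucocorticoid, glial and barrier genes, and 3 genes of smallest p in the other comparisons. List members outside this rule (Rlbp1, Csf1r, the C1q genes, H2-Eb1 and Cd74) and the genes called without 1 array were added after their values were seen. Alternatives were only the 6 arrays, array weights, quantile normalization, other uses of probe sets, a filter on spread, other moderation, a replicate block and leaving out each array. A filter on level was not possible with centred values.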

Additional observations from a re-analysis of the deposited data

How the results depend on the processing

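For DEX against BSS at day 30, the test called 0 genes in the fit of only the 6 arrays, with quantile normalization, with the mean of all probe sets, with every probe set tested, without the genes of lower spread, with trend and robust moderation and with the replicate block (2265 genes at an unadjusted p under 0.05, with smallest adjusted p 0.288). It called 2699 with array weights, where DEX replicate 3 had a weight of 0.273 against 1.86 and 0.789 for its group mates; such weights follow how well an array matches its group and are no separate measure of quality. Leaving out 1 array gave 0 to 695 calls, with 695 without DEX replicate 3, 3 without BSS replicate 2 and 0 otherwise. The count at an unadjusted p under 0.05 was 5725 with array weights, 1115 of 9097 genes without those of lower spread, where fewer genes were tested, and 861 to 4430 when 1 array was left out. For the change between days the test called 1728 genes with array weights, 0 to 1 when 1 array was left out, and 0 with the replicate block. For DEX against TAA it called 2367 with array weights, 101 with the replicate block and 0 to 1253 when 1 array was left out. Same-numbered DEX and TAA day 30 arrays correlated in their deviations at 0.023, -0.155 and -0.215. These values do not settle whether the numbers pair those arrays. The block changed no other call. The cause of these differences between fits was not tested. Of 1465 values of the 114 named genes under the alternatives, 1329 kept their direction and side of the threshold and 126 newly passed it, 83 of them with array weights and 40 without DEX replicate 3. Signs turned for Dus4l with the mean of its probe sets (0.137), for Thy1 with array weights (0.0648), and when 1 array was left out for 5 genes close to 0, whose values then ran from -0.024 to 0.313 for Folh1, -0.118 to 0.176 for Ocln, -0.021 to 0.346 for Rpe65, -0.179 to 0.068 for Thy1 and -0.049 to 0.205 for Tsc22d3. Centred values carry no signal over background, so what dim signal limits is unknown.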
